A study of Mus musculus with 2 samples.

Results

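The genes described here were the AP-1 subunits of the Fos and Jun families together with Egr1 and 2 immediate early response genes of the Ier group. They were picked by gene symbol, and all 10 (Fos, Fosb, Fosl1, Fosl2, Jun, Junb, Jund, Egr1, Ier2 and Ier3) were found among the 16803 genes of the expression table. The cells were NE4C, a line of mouse neural stem cells and a clone from the embryonic brain of p53-deficient mice. The control was the normal culture. The other culture was treated with HTL (homocysteine thiolactone), a reactive cyclic form of homocysteine that attaches to lysine residues of proteins. Both cultures were grown in Eagle MEM on plates coated with poly-L-lysine. There was 1 library of RNA per condition, which leaves every difference without a replicate check. How much HTL was given, and for how long, was not stated in the labels, nor was it stated whether the cultures for RNA had been starved of serum. The study's methods describe starvation and then several doses of HTL in complete medium, which held serum, for its experiments on protein modification. They do not tie these steps to the cultures for RNA-seq. A supplementary legend gives a dose and a time for RT-qPCR of NE4C cells, not for RNA-seq.

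Immediate early genes are switched on by growth factors, serum, neuronal activity and stress without new protein synthesis, and their transcripts usually appear and vanish within a short time. Jun proteins pair with each other or with Fos proteins to form AP-1, a dimeric transcription factor, whereas Fos proteins cannot pair among themselves. Egr1 is a zinc finger transcription factor induced by the same stimuli, Ier2 encodes a small nuclear protein, and Ier3 encodes a stress-induced protein with a role in cell survival.

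The 10 genes did not share a direction. Ier3 was 2.66-fold lower in the HTL treatment library and was the only one of the 10 past both limits of the call (an adjusted p of 0.001 and a log2 ratio of 1 in size). Jund, Jun and Ier2 were between 1.55-fold and 1.73-fold higher, past the limit on the adjusted p but short of the fold limit, and Egr1 was 1.70-fold higher without passing either. Junb was lower in the HTL treatment library by a log2 ratio of -0.52 with an interval that reached 0, and the 4 Fos genes had between 1 and 14 reads in either library. Transcripts of Jun genes therefore outnumbered those of Fos genes in both libraries.

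After rounding, the control library held 10350665 reads and the HTL treatment library 9102076, and the 13442 genes whose reads in the 2 libraries summed to at least 10 were tested. A gene with no read could have up to 3, or 0.290 CPM (reads scaled to the library total) among the control reads and 0.330 CPM after HTL treatment. Over the genes tested, the median log2 ratio was -0.14, and the effective-library scalings (TMM, median of ratios and upper quartile) shifted ratios up by 0.13, 0.14 and 0.093, and by less for genes with few reads, where the added 0.5 read weighs more. The summed FPKM (fragments scaled to transcript length and library size) of the 10 neural stem cell markers was 208 in the control and 151 after HTL treatment. Vim and Msi1 were the most abundant of them, while Fabp7 and Hes5 had at most 2 reads in either library. Of the 8 that were tested, Sox1, Sox2 and Vim were called lower and 0 were called higher, beside 7.98% and 2.81% of all genes tested. Vim (-1.01) lost its call under each of the 3 scalings, at -0.88 with TMM, and with FPKM + 1. Prom1 had a log2 ratio of 0.51, and Nes (-0.059), Msi1 (0.033), Pax6 (0.12) and Hes1 (-0.11) lay near 0. Summed FPKM of the neuronal markers was 36.1 and 51.0, with Tubb3 (log2 ratio 0.60) and Stmn2 (0.57) the most abundant. Of these markers 0 were called higher and 1 lower, namely Dcx with 88 and 29 reads (-1.40), and Map2 stood at -0.60. The summed FPKM of the astrocyte, oligodendrocyte, microglia, fibroblast and endothelium markers lay between 0.47 and 4.44 in either library. Among these, the astrocyte marker Aldh1l1 was called higher, with 21 and 56 reads (1.58), and 0 were called lower. Whether these markers play a part in the values of the immediate early genes was not tested.

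The stretches of 100 bases before the transcription start are shown for Jun, Jund, Junb, Ier3 and Fos, the subunits and the response gene on which the results turn. They come from the RefSeq promoter table for GRCm38.p6, from which windows were taken for 7 of the 10 genes. Capitals mark the letters of the searched motifs.
Jun, chr4:95052223-95052322, minus strand: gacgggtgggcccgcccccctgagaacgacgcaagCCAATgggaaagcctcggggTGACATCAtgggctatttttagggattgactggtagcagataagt
Jund, chr8:70697639-70697738, plus strand: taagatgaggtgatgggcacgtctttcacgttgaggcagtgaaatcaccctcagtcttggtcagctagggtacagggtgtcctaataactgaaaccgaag
Junb, chr8:84978749-84978848, minus strand: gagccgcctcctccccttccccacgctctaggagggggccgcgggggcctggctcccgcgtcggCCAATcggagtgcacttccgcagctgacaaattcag
Ier3, chr17:35821613-35821712, plus strand: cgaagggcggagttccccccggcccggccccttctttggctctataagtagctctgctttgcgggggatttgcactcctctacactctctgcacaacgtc
Fos, chr12:85473790-85473889, plus strand: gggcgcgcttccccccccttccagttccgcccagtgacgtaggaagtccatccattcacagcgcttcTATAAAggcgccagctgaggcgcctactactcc

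Both strands of the 250 bases before each start were searched for the letters of the AP-1 site TGACTCA, the cAMP response element TGACGTCA, the variant AP-1 site TGACATCA, the CCAAT box, the TATA box TATAAA, the Egr site GCGTGGGCG or GCGGGGGCG, and the serum response element. No match overlapped another. The Jun promoter held TGACATCA from position -45 to -38, a match found in 2.93% of 32851 promoters, and CCAAT from -65 to -61. CCAAT was common, with a match in 33.8% of promoters, and occurred also in Junb from -36 to -32 and in Ier3 from -244 to -240 and from -175 to -171, the latter pair lying upstream of the stretch shown. The Fos promoter held TATAAA from -33 to -28, as 12.4% of promoters did. Fosb and Fosl2, whose promoters are not shown, each held the Egr site as GCGGGGGCG, found in either form in 3.06% of promoters. The matched Jund window held none of these letters, and TGACTCA, TGACGTCA and the serum response element, with matches in 4.46%, 1.55% and 1.47% of promoters, were in none of the 7 windows. The promoters of Egr1, Ier2 and Fosl1 were not searched, so the presence or absence of these motifs there is not known. A match is a run of letters and not a measured binding site.

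The first comparison asked how the Jun family, which supplies the obligate partner in AP-1, differed between the libraries. Jund, the subunit that is broadly present in resting cells, had 591 control reads and 901 HTL treatment reads, or 57.1 and 99.0 CPM. Its log2 ratio was 0.79 with a 95% interval of 0.64 to 0.95, a 1.73-fold difference that was past the limit on the adjusted p (9.07e-25, exact binomial test with Benjamini-Hochberg adjustment) and short of the limit on the fold. The HTL treatment value was the higher, the counting intervals did not overlap, and 92.5% of all genes tested had a lower log2 ratio. With a coefficient of variation of 0.1 assumed between libraries, Jund, Jun and Ier2 no longer passed the limit on the adjusted p by the exact test of edgeR.

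Jun, the family's founding member and a substrate of the JNK kinases, had 128 control reads and 175 HTL treatment reads, or 12.4 and 19.2 CPM. Its log2 ratio was 0.63 (95% interval 0.30 to 0.98, adjusted p = 0.000386 by the exact binomial test). Junb, which can restrain the activity of Jun at some genes, had 75 and 46 reads, or 7.25 and 5.05 CPM. Its log2 ratio was -0.52 (95% interval -1.08 to 0.029, adjusted p = 0.0918 by the exact binomial test), so a difference was not detectable at this depth. Junb thus had the opposite sign from Jun and Jund, and the counting intervals of its CPM in the libraries overlapped.

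The subunits were compared with each other by a ratio of ratios, in which library size and transcript length cancel. The control-to-treatment change of Jun exceeded that of Junb by 1.15 on the log2 scale (95% exact conditional interval 0.50 to 1.82). Junb was below Jund by the same measure at -1.31 (interval -1.90 to -0.74). Jun and Jund differed by -0.16 (interval -0.53 to 0.22), which holds 0 and leaves room for a difference of either sign. Of 12 pairs of genes or families compared, 8 had enough reads for an interval and 4 of those intervals excluded 0. The intervals cover counting error only and carry no p.

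Levels per transcript length gave the make-up of the family. Jund had an FPKM of 19.64 in the control and 33.97 in the HTL treatment library, Jun 3.86 and 5.98, and Junb 3.95 and 2.75. Jund made up 71.5% of the summed FPKM of the Jun genes in the control and 79.6% in the HTL treatment library. The share of Junb was 14.4% and 6.44%, while that of Jun was 14% in both libraries. The summed FPKM of the family was 27.45 and 42.7.

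**Figure D1:**
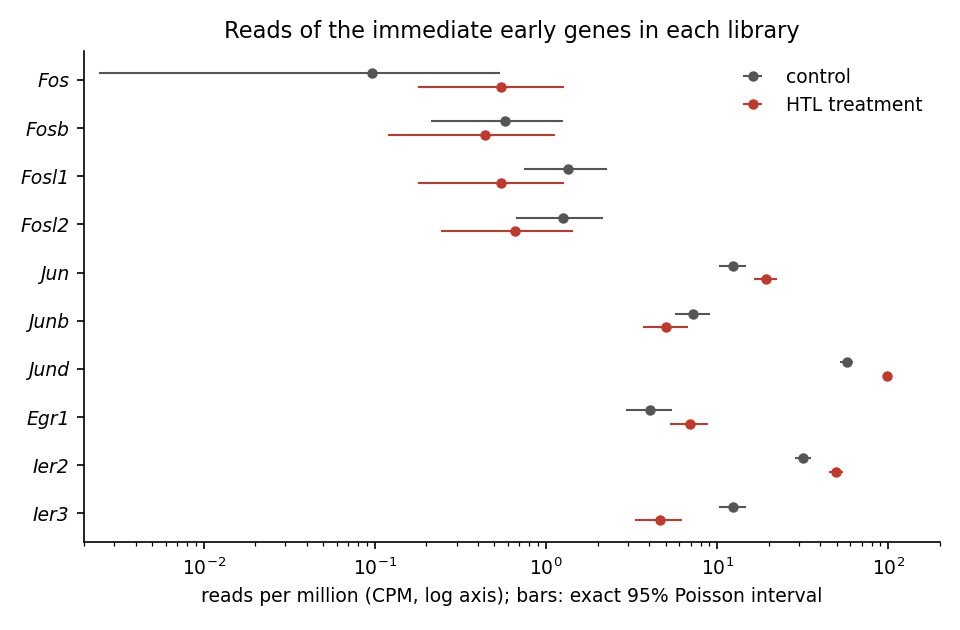
Reads scaled to the library total (CPM, log axis) of each of the 10 genes in the control (grey) and HTL treatment (red) library, with exact 95% Poisson intervals as bars. The intervals of Jund, Jun, Ier2 and Ier3 do not overlap between the libraries, with Ier3 the only one of these that was lower after HTL treatment, and those of the Fos genes overlap widely.

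The Fos family was close to the limit of detection in both libraries. Fos, the rapidly induced partner of Jun, had 1 read in the control and 5 in the HTL treatment library, or 0.0966 and 0.549 CPM, a log2 ratio of 2.02 with a counting interval of -0.65 to 8.07. With 6 reads in both libraries together it was below the filter and was not tested. Fosb, which is linked to lasting adaptation in neurons, had 6 and 4 reads, for a log2 ratio of -0.36 (interval -2.67 to 1.68). These counts are too low to show a direction.

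Fosl1, which encodes Fra-1, had 14 control reads and 5 HTL treatment reads. Its log2 ratio of -1.22 was past the fold limit, but its interval of -3.13 to 0.25 held 0 and its adjusted p was 0.160 by the exact binomial test. Fosl2, which encodes Fra-2, had 13 and 6 reads, for a log2 ratio of -0.88 (interval -2.61 to 0.57, adjusted p = 0.335 by the exact binomial test). Summed over the 4 genes, the Fos family had 34 and 20 reads, or 3.28 and 2.20 CPM, against 76.7 and 123 CPM of the Jun family. Relative to the Jun sum, the Fos sum was lower in the HTL treatment library by -1.26 on the log2 scale (interval -2.15 to -0.41). The 3 pairs among Fosb, Fosl1 and Fosl2 gave differences of 0.87, 0.51 and -0.36, each with an interval that held 0.

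**Figure D2:**
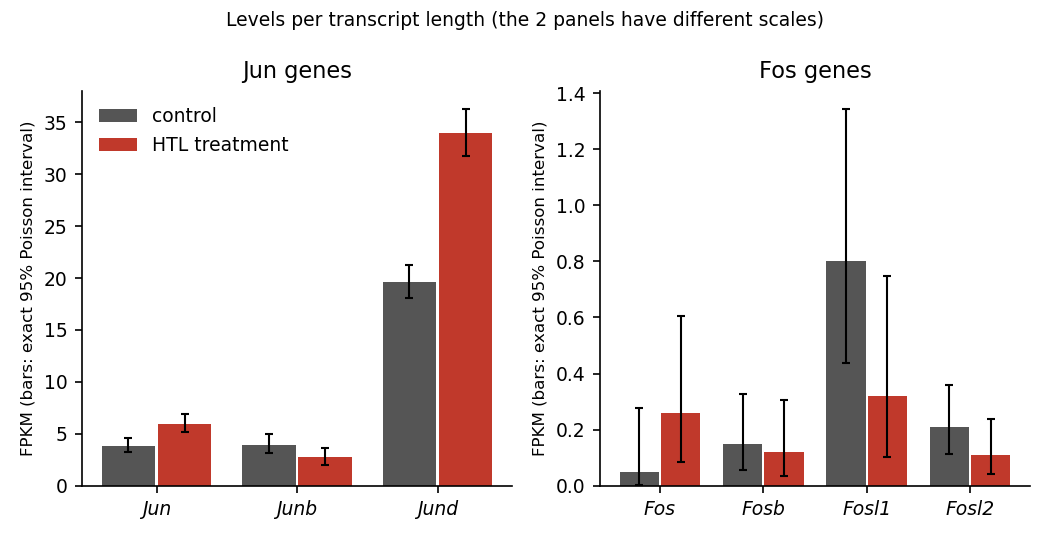
FPKM, a level per transcript length, of the Jun genes (left) and the Fos genes (right, on a smaller scale) in the control (grey) and HTL treatment (red) library, with exact 95% Poisson intervals as error bars. Jund stands at 19.64 and 33.97, above every other gene shown, and no Fos gene exceeds 0.80.

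Egr1, which binds GC-rich promoters and shares its stimuli with Fos, had 42 control reads and 63 HTL treatment reads, or 4.06 and 6.92 CPM. Its log2 ratio was 0.76 (95% interval 0.18 to 1.37), with an adjusted p of 0.0161 by the exact binomial test, which is above the limit of 0.001. The counting intervals of its CPM overlapped between the libraries. The log2 ratio of Egr1 was thus close to that of Jund, with wider error from fewer reads. Egr1 could not be compared with Fos by a ratio of ratios, because Fos had too few reads.

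Ier2 had 330 control reads and 451 HTL treatment reads, or 31.9 and 49.5 CPM. Its log2 ratio was 0.64 (95% interval 0.43 to 0.85, adjusted p = 4.65e-09 by the exact binomial test). Ier3 had 128 and 42 reads, or 12.4 and 4.61 CPM. The HTL treatment value of Ier3 was the lower and that of Ier2 the higher, and for neither gene did the counting intervals of the libraries overlap. The log2 ratio of Ier3 was -1.41 (interval -1.96 to -0.91, adjusted p = 2.10e-08 by the exact binomial test), and 5.90% of all genes tested had a lower one. The Ier genes therefore lay on opposite sides of 0, and the change of Ier2 exceeded that of Ier3 by 2.06 on the log2 scale (interval 1.5 to 2.6), the widest difference among the pairs with an interval. When the libraries were assumed to vary biologically with a coefficient of variation of 0.2, Ier3 no longer passed, at an adjusted p of 0.0676 by the exact test of edgeR.

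**Figure D3:**
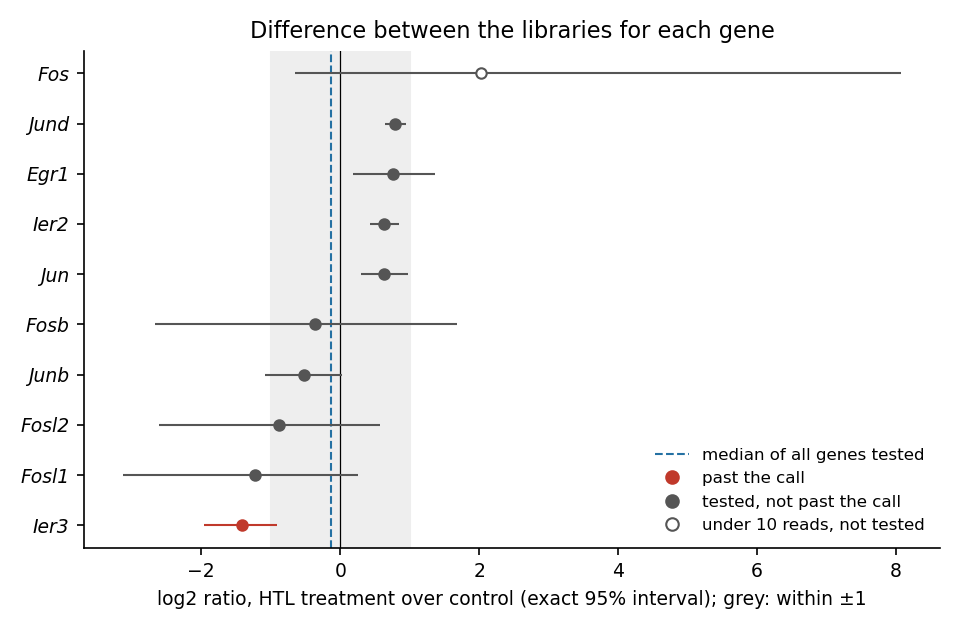
Log2 ratio of HTL treatment over control for each of the 10 genes with its exact 95% interval, which covers counting error only. Ier3 at -1.41 is the only gene past the call (red), Jund, Egr1, Ier2 and Jun lie between 0.63 and 0.79, and the interval of Fos (open circle, not tested) runs from -0.65 to 8.07.

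Of the 10 genes, 9 passed the filter on reads, 0 were called higher and 1 was called lower. Over all genes tested, 2.81% were called higher and 7.98% lower (378 and 1072 genes), and with TMM scaling 552 and 800. By the limit on the adjusted p alone, 3 of the 9 were higher (Jund, Jun and Ier2) and 1 lower (Ier3), beside 14.5% and 24.1% of all genes tested. By the limit on the fold alone, 0 were higher and 2 lower (Ier3 and Fosl1), beside 4.72% and 12.2%. The log2 ratio was above 0 for 4 of the 9 and below 0 for 5, beside 5549 and 7893 of the 13442 genes tested. Of the 5 below 0, only Ier3 had an interval that excluded 0. The median of the 9 was -0.36, which is the value of Fosb with 6 and 4 reads, beside -0.14 for all genes tested. With so few genes these counts do not set the group apart from the background.

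**Figure D4:**
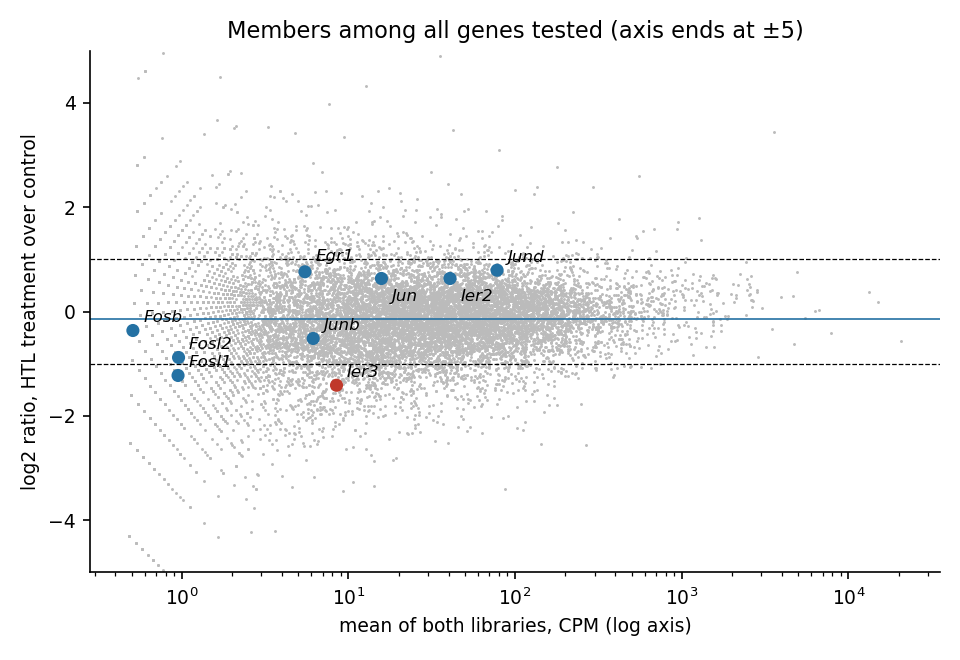
Log2 ratio of HTL treatment over control against the mean level of both libraries in CPM (log axis) for all genes tested (grey dots) and the 9 tested genes described here (blue, Ier3 in red), with dashed lines at the fold limits and a blue line at the median of -0.14. Genes beyond a log2 ratio of 5 in either direction lie outside the axis. Jund, Jun, Ier2 and Egr1 lie in the upper part of the cloud without leaving it, and Fosb, Fosl1 and Fosl2 lie at its low-count edge, where the ratios of all genes spread widely.

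Ranked by FPKM, Ier2 (20.82) and Jund (19.64) led in the control library, and their ratio of 1.06 had an interval of 0.924 to 1.21. Ier3 followed at 11.54, then Junb and Jun, whose levels could not be separated, and then Egr1 at 1.31. In the HTL treatment library Jund (33.97) and Ier2 (32.30) again led without differing beyond counting error, and Jun (5.98) stood next. Ier3 (4.30) was not separable from Jun (ratio interval 0.99 to 2.0), and Egr1 stood at 2.24. Fosl1 was the highest of the Fos genes in both libraries, at 0.80 and 0.32, although after HTL treatment no Fos gene could be separated from the next one in the order. Jund exceeded 78.8% of all genes of the table in the control and 87.1% in the HTL treatment library, whereas Fos exceeded 6.92% and 22.5%.

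The genes differed in structure as well, according to GENCODE vM1 on the mm9 build, which the submitters' notes name. Jund lies at chr8:73221638-73224515 on the plus strand, Junb at chr8:87500811-87502617 and Ier2 at chr8:87185230-87186751, both on the minus strand. Jun lies at chr4:94715725-94718913 on the minus strand and Ier3 at chr17:35958629-35959868 on the plus strand. Junb and Ier2 are single-exon genes, and Jun, Jund and Ier3 have at most 2 exons. Exons of Jun overlap BC042782 and those of Jund overlap Gm11175, both on the opposite strand. The use of strand in counting was not given in the sources used here, so reads of such partners could not be told apart.

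The 4 Fos genes have 4 exons each. Fos lies at chr12:86814840-86818223, Fosl1 at chr19:5447703-5455945 and Fosl2 at chr5:32438845-32460204 on the plus strand, and Fosb at chr7:19888070-19895394 on the minus strand. Exons of Fosl1 overlap those of Ccdc85b on the opposite strand. Egr1 lies at chr18:35020861-35024638 on the plus strand with 3 exons, and overlaps Gm17507 on the opposite strand.

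Many immediate early transcripts carry AU-rich elements, in which the pentamer ATTTA recurs and which mark an mRNA for rapid decay. Ier3 had 5 copies of ATTTA in the 613 bases after its coding part, or 8.16 per kb, more than 98.2% of 18216 genes. Fos had 4 (4.91 per kb), Junb 2 (4.14 per kb) and Jun 4 (3.24 per kb), and the median of all genes was 1.20 per kb. Jund had 1 copy (1.88 per kb), and Ier2 had 0. The longer element TTATTTATT was found in Fos and Fosl2, as in 7.07% of genes. The part of these elements in the log2 ratios was not tested. Among all tested genes with a matched transcript, the 1187 with at least 4 copies per kb had a median log2 ratio of -0.17, beside -0.12 for all 11255.

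Transcript length moved with the ratios in these libraries, and its part in the values of single genes was not tested. Among 10 classes of genes by length, the class that holds Ier3 had a median log2 ratio of 0.14, and that of Jun, Jund and Egr1 had a median of -0.17. After subtracting the median of its own class, a step added after seeing the data, Ier3 stood at -1.55, Jund at 0.96, Egr1 at 0.93, Jun at 0.80 and Ier2 at 0.65. The order of Ier3, Junb and Jund was the same by both measures, while Jun and Ier2, nearly equal before at 0.63 and 0.64, changed places.

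The second comparison asked how the other proteins that bind with Jun and Fos behaved. Of 11 tested genes of the ATF, JDP, BATF and MAF groups, 4 were called higher and 0 lower after HTL treatment, beside 2.81% and 7.98% of all genes tested, and their median log2 ratio was 0.33. Atf3, a stress-induced repressor that pairs with Jun proteins, had 128 and 612 reads, for a log2 ratio of 2.44 (interval 2.17 to 2.73). Jdp2, a Jun-binding repressor, had 71 and 221 reads, for a log2 ratio of 1.82 (interval 1.43 to 2.23). Atf4, the effector of the integrated stress response, had 3047 and 7124 reads, for a log2 ratio of 1.41 (interval 1.35 to 1.47). Mafk, a small MAF protein without an activation domain, had 86 and 184 reads, for a log2 ratio of 1.28 (interval 0.91 to 1.67). Each of these 4 had a larger log2 ratio than any of the 9 tested Fos, Jun, Egr and Ier genes.

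The other 7 did not pass the call. Atf2 had 1144 and 748 reads (log2 ratio -0.43) and Atf7 had 391 and 258 (-0.41), both past the limit on the adjusted p but not on the fold. Maff had 127 and 96, Mafg 413 and 391, Mafa 5 and 13, and Batf3 18 and 20 reads, none of them past either limit except Mafa, whose log2 ratio of 1.47 rested on 18 reads in all. Exons of Mafk overlap those of Tmem184a, and those of Mafg overlap Sirt7.

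Of the Egr relatives and the Nab corepressors, 4 were tested, 0 were called higher and 1 was called lower, beside the same 2.81% and 7.98%. Nab2, which binds Egr proteins and represses them and is itself a target of Egr1, had 637 and 257 reads, for a log2 ratio of -1.12 (interval -1.34 to -0.91). Under TMM and median of ratios scaling it no longer passed the fold limit, and its exons overlap those of Stat6, Tmem194 and Gm16229. Nab1 had 183 and 144 reads (-0.16), Egr2, a regulator of hindbrain patterning and myelination, 114 and 79 (-0.34), and Wt1, which binds similar GC-rich sites, 133 and 82 (-0.51). All 4 had log2 ratios below 0, as did 7893 of the 13442 genes tested, while that of Egr1 was 0.76. The intervals of Nab1 (-0.49 to 0.16) and Egr2 (-0.78 to 0.083) held 0, and that of Wt1 was -0.93 to -0.10.

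Other immediate early genes were spread on both sides. Of 35 tested, 8 were called higher and 4 lower, beside 2.81% and 7.98% of all genes tested, with a median log2 ratio of -0.0085. Klf10, a TGF-beta inducible repressor, had 71 and 706 reads, for a log2 ratio of 3.49 (interval 3.15 to 3.87), and Plk2, a stress-responsive kinase, had 9 and 31 reads, for a log2 ratio of 1.91 (interval 0.86 to 3.23), a call that was lost with FPKM + 1 (0.75). Atf3, given above, is also on this list. Myc had 538 and 111 reads (-2.09), the scaffold gene Homer1 had 174 and 39 (-1.96), and the kinase gene Sgk1 had 327 and 118 (-1.28).

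The upstream regulators are read against the same shares of all genes tested, 2.81% called higher and 7.98% lower. Of 14 tested serum response and CREB factors, 0 were called higher and 2 lower, namely Elk3, a ternary complex factor, with 81 and 22 reads (-1.67), and Mkl2, a coactivator of serum response factor, with 209 and 89 (-1.04). Of 31 tested genes of the MAP kinase cascades, 0 were called higher and 2 lower, namely Map2k6, a kinase of p38, with 222 and 55 reads (-1.82), and Braf with 721 and 311 (-1.03). The medians of these lists were -0.32 and -0.25. By the adjusted p alone, 1 serum response or CREB factor was higher and 6 lower, and 4 MAP kinase genes were higher and 12 lower. The 1 higher factor was Srf, with 692 and 895 reads (0.56). Of 15 tested genes for the turnover and binding partners of Jun and Fos, 0 were called in either direction at the exact binomial test's call, and their median was -0.17, while 1 was higher and 5 lower by the adjusted p alone, beside 14.5% and 24.1% of all genes tested. Mkl2 and Braf lay just past the fold limit and lost their calls under each of the 3 effective-library scalings, at -0.91 and -0.90 with TMM. With FPKM + 1, Elk3 (-0.86), Mkl2 and Braf lost their calls.

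**Figure D5:**
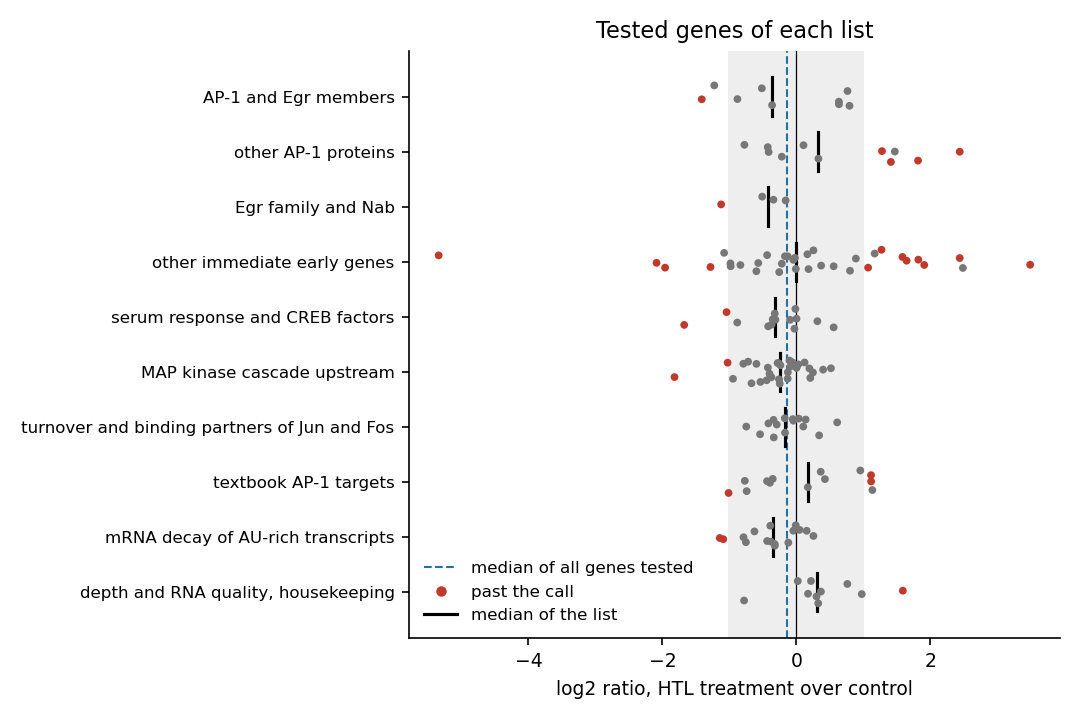
Log2 ratio of HTL treatment over control for every tested gene of each list, with red points past the call, black bars at the list medians and a dashed line at the median of all genes tested, -0.14. Calls to the right lie among the other AP-1 proteins (4), the other immediate early genes (8), the AP-1 targets (2) and the housekeeping genes (1). The point farthest to the left is Klf2 with 21 and 0 reads, and its place depends on the 0.5 read added.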

How the data were processed

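RNA-seq of NE4C cells comprised 1 control and 1 HTL treatment library, grouped by their titles. Per the labels, libraries were made with a TruSeq kit and sequenced by BGISEQ protocols. The study's methods state that clean tags were mapped to the mouse genome and genes. Matched reads were then counted and normalized to RPKM, a level scaled like FPKM, with software written as RESM, read here as RSEM. The mapper, versions and use of strand are not given in the sources used here, and the build mm9 comes from the submitters' processing notes. The authors deposited 1 table with estimated counts per gene, not normalized, and with FPKM, which scales them to transcript length and library size. RSEM shares reads between similar genes, so 21.8% of the control column and 20.2% of the HTL treatment column were not whole numbers. The table's columns of log2 ratios, p-values and FDR were not used. Rows without a gene symbol (80) held 0.221% and 0.216% of reads and named no gene listed here.

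Estimated counts were rounded to whole numbers. The 13442 genes whose reads in the 2 libraries summed to at least 10 (3361 others were left out) were tested by the two-sided exact conditional binomial test against the library totals, with Benjamini-Hochberg adjustment over all of them. Calls needed an adjusted p no higher than 0.001 together with a log2 ratio of 1 or more in size, the study's cutoffs. Ratios had 0.5 read added per library, scaled to the totals, and 95% intervals were Clopper-Pearson. Levels had Poisson intervals, and ratios of ratios had exact conditional intervals. Since no molecular identifiers were used, reads are not independent molecules. Intervals and tests therefore cover counting error only, and a test compares the libraries rather than the conditions. Fos, with 1 to 5 reads per library, was given as a ratio with its interval instead of a bound. The quasi-likelihood test of edgeR could not be fitted without replicates. The test was checked only on simulated counts with counting error alone, in which genes with many reads had large changes. That check does not cover variation between cultures, smaller changes or changes at low counts. Alternatives were other scalings, filters, added reads, FPKM + 1, other cutoffs and the exact test of edgeR 4.0.16 (R 4.3.3) with assumed coefficients of variation. Python 3.11.15 and scipy 1.17.1 were used.

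The genes and the 9 comparison lists were chosen with earlier results of these data known. Named were all 10 genes, the tested members of the 2 lists of AP-1 and Egr relatives, from each other list the 3 largest called rises and falls with a mean of at least 20 reads, and of the cell type lists the 2 most abundant markers. The values of 2 genes that this rule names are not reported here. Motifs were searched in RefSeq promoters (GRCm38.p6), and gene models and transcripts came from GENCODE vM1. Coordinates of the builds were not converted.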

Additional observations from a re-analysis of the deposited data

How the results depend on the processing

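No paired analysis was possible because there was only 1 library of each kind, which also leaves no replicate to omit. Of the log2 ratios of single genes under the alternatives, 105 kept their direction and their side of the call, 2 lost the call and 0 reversed. The changed filters and the exact test of edgeR used the same log2 ratios as the main test, so no reversal was possible there. Fos, which was not tested under most alternatives, had no call to lose. Both losses were of Ier3, whose log2 ratio of -1.41 lost its call with an assumed coefficient of variation of 0.2 (adjusted p = 0.0676, exact test of edgeR) and 0.4 (adjusted p = 1), so that 0 of the genes were called lower at these settings. With the adjusted p alone 3 were higher, and with the fold alone 2 were lower. At an assumed 0.1, Jund had an adjusted p of 0.00250, Ier2 of 0.0273 and Jun of 0.0651 by the exact test of edgeR. A filter at a mean of 50 reads left 6 of the genes tested, and no filter let Fos be tested (adjusted p = 0.193, exact binomial test). The 8 ratios of ratios kept their sign with FPKM + 1. Rounding the reads down could not change them, since the estimated counts of these genes were whole numbers.

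Among the other lists, TMM and median of ratios scaling left 0 genes called of the Egr and Nab list, 1 of the serum response and CREB factors, 1 of the MAP kinase cascade, 1 of the AU-rich decay genes and 2 of the housekeeping genes. The calls lost were those of Nab2, Mkl2, Braf, Cnot6 and Vim, and those gained were of Hbegf, Csrnp1, Nfkbia and B2m. Upper quartile scaling gave the same counts for these lists except that Nab2 stayed called. The ratio of FPKM + 1 gave 0 serum response and CREB factors, 1 MAP kinase gene and 1 AP-1 target, without Elk3, Mkl2, Braf, Spp1 and Vim, and 9 other immediate early genes, without Plk2, Klf4 and Ier5l. Over all genes tested, 378 were called higher and 1072 lower, 552 and 800 with TMM, 559 and 788 with median of ratios, 241 and 575 with FPKM + 1, 38 and 82 when a coefficient of variation of 0.2 was assumed, and 1 and 5 when 0.4 was. Other causes of these shifts were not tested. Depth limited the Fos genes most, with at most 14 reads in a library.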

Other observations

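Of the textbook AP-1 target genes, 17 were measured and 13 tested. Of these, 2 were called higher and 1 lower, beside 2.81% and 7.98% of all genes tested, and their median log2 ratio was 0.17. Hmox1, the heme-degrading enzyme induced by oxidative stress, had 903 and 1721 reads in the control and HTL treatment library (log2 ratio 1.12, interval 1.00 to 1.23), and Spp1, which encodes osteopontin, had 37 and 71 (1.11, interval 0.53 to 1.74). Vim, an intermediate filament gene that is also a neural stem cell marker, had 1487 and 648 reads (-1.01, interval -1.15 to -0.88). Its call was lost under all 3 effective-library scalings, at -0.88 with TMM, and with FPKM + 1, while Hbegf, at 0.95 when scaled to the library totals, was called higher under the 3 scalings. Spp1 lost its call with FPKM + 1 (0.89).

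Of 16 tested genes for the decay of AU-rich mRNA, 0 were called higher and 2 lower, beside the same shares, with a median log2 ratio of -0.35. Khsrp, a KH-domain protein that recruits the decay machinery to AU-rich elements, had 2894 and 1152 reads (-1.14), and Cnot6, a deadenylase subunit, had 1282 and 529 (-1.09). Cnot6 lost its call under the 3 scalings, at -0.96 with TMM. The 10 housekeeping genes had a median log2 ratio of 0.31, so such genes were not a flat reference in these libraries. By the adjusted p alone 8 of them were higher and 1 lower, beside 14.5% and 24.1% of all genes tested. Among them, Rplp0 (0.76) lay near Jund (0.79), B2m (0.98) lay above it, and Hprt was at -0.78.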
